A study of Mus musculus with 12 samples.

Results

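The loss of the chemokine receptor D6 in diabetic kidney was examined by comparing 3 OVE-D6 arrays with 3 OVE arrays, 6 of the 12 arrays of the study, each made from the kidney RNA of 1 mouse at 6 months of age. OVE mice were diabetic with intact D6, and OVE-D6 mice were diabetic and homozygous for the D6 deletion. The other arrays came from non-diabetic mice, 3 with intact D6 (FVB) and 3 D6 knockouts (D6). All 4 groups were of the FVB strain. The deletion came from C57BL/6 mice and was crossed to FVB for at least 10 generations, and D6 mice were then bred for 2 generations with OVE mice. OVE26 diabetes arises from a calmodulin transgene that acts in pancreatic beta cells, so the model is one of early insulin deficiency. All animals ate standard chow. The arrays were chosen by the source name in the labels. Expression is given as the log2 value of a probe set, the group of array probes that measures a transcript, so a difference of 1 is a doubling. The comparison covered every gene with a probe set of a single gene symbol, 19936 genes, of which 16480 were tested because they exceeded the 25th percentile of 3 or more arrays.

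D6, encoded by Ackr2, is an atypical chemokine receptor. It binds inflammatory CC chemokines such as Ccl2 and carries them into the cell for degradation without starting the signals of a conventional receptor. CC chemokines draw monocytes and other leukocytes out of the blood, and in diabetic kidneys monocytes become macrophages between the tubules and in the glomeruli, beside injured tubular cells and growing matrix. Whether these processes differ when the scavenger is missing is the question the comparison addresses.

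Every array carried kidney genes at high level, among them the phosphate transporter gene Slc34a1 of the proximal tubule at 13.51 to 13.87 and the thick limb gene Umod at 12.80 to 13.31. A level below 5.93, the 95th percentile of 1027 olfactory receptor genes, is called near background here. Xist lay at 12.53 to 12.87 on all 12 arrays and the Y-linked genes Eif2s3y, Kdm5d and Uty were near background on all of them. OVE replicate 3 stood apart from its group. A first principal component carried 35.9% of the variance. On it OVE replicate 1 had a score of 27.0, replicate 2 of 29.4 and replicate 3 of 6.9, while the OVE-D6 arrays lay at -2.2, -1.2 and 5.2 and the 6 non-diabetic arrays between -15.1 and -5.1. OVE-D6 replicate 3 carried adrenal genes. Its Cyp11b1, an enzyme of the adrenal cortex, lay at 9.93 against 5.27 to 5.76 on the other arrays. Averaged over 8 tested adrenal markers this array lay 1.19 above the FVB mean, and the other 11 arrays between -0.09 and 0.10. In whole kidney, fewer cells of a type and less RNA per cell cannot be told apart. The 3 arrays per group limit the precision. Each p-value sets a difference against a spread estimated from all 12 arrays together. The median SD over tested genes was 0.123 in OVE, 0.099 in OVE-D6, 0.096 in FVB and 0.105 in D6. These medians do not describe single genes. Where OVE arrays lay far apart, as for Lyz2 and Lcn2 below, the shared spread understates that of OVE.

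Ackr2 itself did not pass the test. Its values were 6.81, 6.83 and 7.04 in OVE and 6.98, 6.91 and 6.88 in OVE-D6, a log2 difference of 0.03 ± 0.08 (SE, n = 3 per group, 95% interval -0.15 to 0.21, limma adjusted p = 0.899). The OVE-D6 values lay within the range of the OVE values. A probe set outside the deleted part of a gene does not report its loss, and which part was deleted is not given in the sources used here.

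In the diabetic kidneys with D6 loss, the genes that fell included the macrophage and monocyte markers Cd14, Lyz2, Mrc1, Fcgr3 and Mmp12, the chemokine receptor gene Ccr2, the growth factor gene Csf1 and the adhesion molecule genes Vcam1 and Cd44. Of 16480 genes tested, 38 (0.231%) differed at a Benjamini-Hochberg adjusted p under 0.05 (limma, all 12 arrays in a single fit). In OVE-D6, 30 genes (0.182%) fell and 8 (0.0485%) rose. Counts of called members in the lists below are to be set beside these shares. For the 26 of the 30 whose OVE-D6 mean was above background, the declines ran from 1.34-fold (Zdhhc14) to 3.82-fold (Lyz2). The other 4, Ccr2, Cysltr1, Irf4 and H2-M2, have only a lower bound. The 3 OVE-D6 values lay wholly below or above the 3 OVE values for all 38, and the median log2 difference over all genes tested was 0.01. Groups that did not overlap were found in 17.6% of all genes tested, and 2438 genes (14.8%) had an unadjusted p under 0.05.

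The count depended on single arrays. Without OVE replicate 3 it was 668 (4.05%), with 547 genes lower and 121 higher, and these held all 38. That array stands out by its values alone, so the fit without it is no separate support. Leaving out OVE replicate 1 or 2 gave 18 and 6 genes, leaving out OVE-D6 replicate 1, 2 or 3 gave 1, 1 and 19, leaving out FVB replicate 1, 2 or 3 gave 4, 5 and 5, and leaving out D6 replicate 1, 2 or 3 gave 6, 5 and 4. A fit on the 6 diabetic arrays alone called 0 genes, with 1975 at an unadjusted p under 0.05 and a smallest adjusted p of 0.141. Of the 38 genes, 34 had an adjusted p above 0.03. Slc6a20b passed in all 12 of the fits that left out an array. Cd14, Ccr2 and B230206H07Rik passed in 10 of 12, Lars2 in 6, Cited1 and Rgs16 in 3, and the other 31 in 1 or 2.

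**Figure D1:**
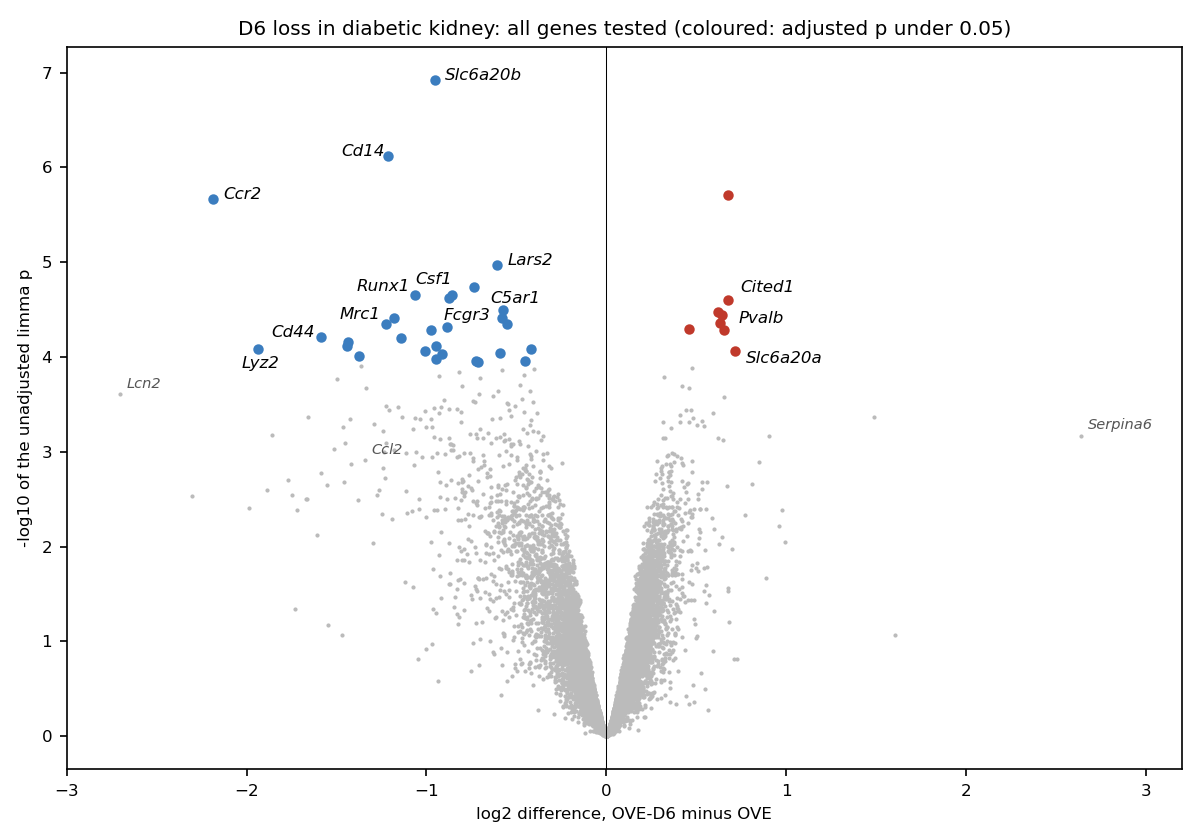
Each point is 1 of the 16480 genes tested, with the log2 difference OVE-D6 minus OVE on the horizontal axis and the negative log10 of the unadjusted limma p on the vertical axis. Blue points mark the 30 genes that fell and red points the 8 that rose at an adjusted p under 0.05; Slc6a20b and Cd14 stand highest, and Lcn2, Ccl2 and Serpina6, in grey, have large differences without passing.

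Cd14, the co-receptor that hands bacterial lipopolysaccharide to Toll-like receptors on macrophages, fell with the smallest adjusted p of the immune genes. Its log2 values were 8.06, 8.33 and 7.88 in OVE and 6.78, 6.75 and 7.09 in OVE-D6, against 6.61 to 6.99 in the 6 non-diabetic kidneys. All 3 OVE arrays were high, and the OVE-D6 arrays lay within or just above the non-diabetic range. The difference was -1.22 ± 0.13 (SE, n = 3 per group), 2.32-fold lower, with limma adjusted p = 0.00624.

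Lyz2, the lysozyme of macrophages and neutrophils, read 11.97, 12.15 and 10.53 in OVE and 9.46, 9.51 and 9.89 in OVE-D6. The lowest OVE array, replicate 3, was above the highest OVE-D6 array, and the difference of -1.93 ± 0.34 (3.82-fold lower) passed at adjusted p = 0.0457. Lyz2 was also the called gene with the largest positive estimate among non-diabetic knockouts, where D6 minus FVB was 0.82 ± 0.34 (adjusted p = 1).

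Mrc1, the mannose receptor of tissue macrophages, had values of 8.65, 8.95 and 7.85 in OVE and of 7.22, 7.20 and 7.35 in OVE-D6. Its OVE-D6 arrays were tightly grouped and its OVE arrays spread, with replicate 3 the lowest. The log2 difference was -1.23 ± 0.20, 2.34-fold lower (adjusted p = 0.0393). Fcgr3, a low-affinity receptor for immunoglobulin G on phagocytes, read 7.31, 7.44 and 7.06 in OVE and 6.38, 6.24 and 6.63 in OVE-D6, and fell by 0.86 ± 0.13 on the log2 scale (adjusted p = 0.0393). Mmp12, the macrophage elastase, read 7.25, 8.31 and 6.93 in OVE and 5.94, 6.08 and 6.15 in OVE-D6 (log2 difference -1.44 ± 0.25, adjusted p = 0.0457). Both genes had non-overlapping groups, with OVE replicate 3 closest to the OVE-D6 arrays.

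The promoters of Mrc1, Fcgr3 and Mmp12 are shown because these genes fell together and each holds GAGGAA, the purine-rich core recognised by PU.1, a transcription factor of the myeloid lineage. The sequences are from RefSeq on GRCm38.p6, run 5′ to 3′ along the gene's strand and end at the base before a start of the gene. Mrc1 is at chr2:14229214-14229413 on the plus strand, Fcgr3 at chr1:171059404-171059503 on the minus strand and Mmp12 at chr9:7344297-7344396 on the plus strand. Capitals mark the motif, here always read on the opposite strand.

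Mrc1: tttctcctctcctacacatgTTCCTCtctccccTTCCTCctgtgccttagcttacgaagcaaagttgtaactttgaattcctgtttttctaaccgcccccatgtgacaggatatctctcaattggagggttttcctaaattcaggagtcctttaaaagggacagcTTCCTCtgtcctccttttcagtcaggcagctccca
Fcgr3: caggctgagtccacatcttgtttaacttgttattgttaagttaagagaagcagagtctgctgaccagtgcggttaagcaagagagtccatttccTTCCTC
Mmp12: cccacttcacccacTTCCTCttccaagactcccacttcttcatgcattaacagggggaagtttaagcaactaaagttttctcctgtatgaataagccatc

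In Mrc1 the 3 matches began 180, 167 and 35 bases before the start, in Fcgr3 6 bases and in Mmp12 86 bases before it. Over 250 bases before each start and on both strands, GAGGAA was found in 6985 of 27018 genes (25.9%), in 12 of the 24 genes that fell and had a promoter in the table, and in 2 of the 8 that rose. These are matches of letters, not sites shown to be bound. Mrc1, Fcgr3 and Mmp12 were picked for holding a match. Cd14 and Lyz2, the other macrophage and monocyte markers that fell, were not among the 12.

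The wider marker list moved the same way in its estimates, though most of it did not pass. Of 29 tested macrophage and monocyte markers, 5 fell (0.182% of all genes tested did) and 0 rose. The 5 are the genes described above. A lower estimate was found for 28 (47.3% of all genes tested), each of those with an unadjusted p under 0.05 (8.13%). Over the 29 the median log2 difference was -1.004. The members nearest to passing were the scavenger receptor Msr1 at -0.80 ± 0.15 (adjusted p = 0.0653), Gpnmb at -1.34 ± 0.26 (0.0657), the phagocyte marker Cd68 at -1.16 ± 0.24 (0.0774) and Ms4a7 at -1.29 ± 0.28 (0.0824). Csf1r, the receptor for the macrophage growth factor Csf1, was the exception, with 9.87, 9.67 and 9.19 in OVE, 9.38, 9.78 and 9.64 in OVE-D6 and a difference of 0.03 ± 0.18 (95% interval -0.36 to 0.41). Averaged over the list and set against the FVB mean, the OVE arrays lay at 1.50, 1.55 and 0.51 and the OVE-D6 arrays at 0.10, 0.22 and 0.28. OVE replicate 3 thus lay nearer to the highest OVE-D6 array than to the other OVE arrays. Without OVE replicate 3 the median was -1.38 and 25 of the 29 fell (3.32% of all genes tested).

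**Figure D2:**
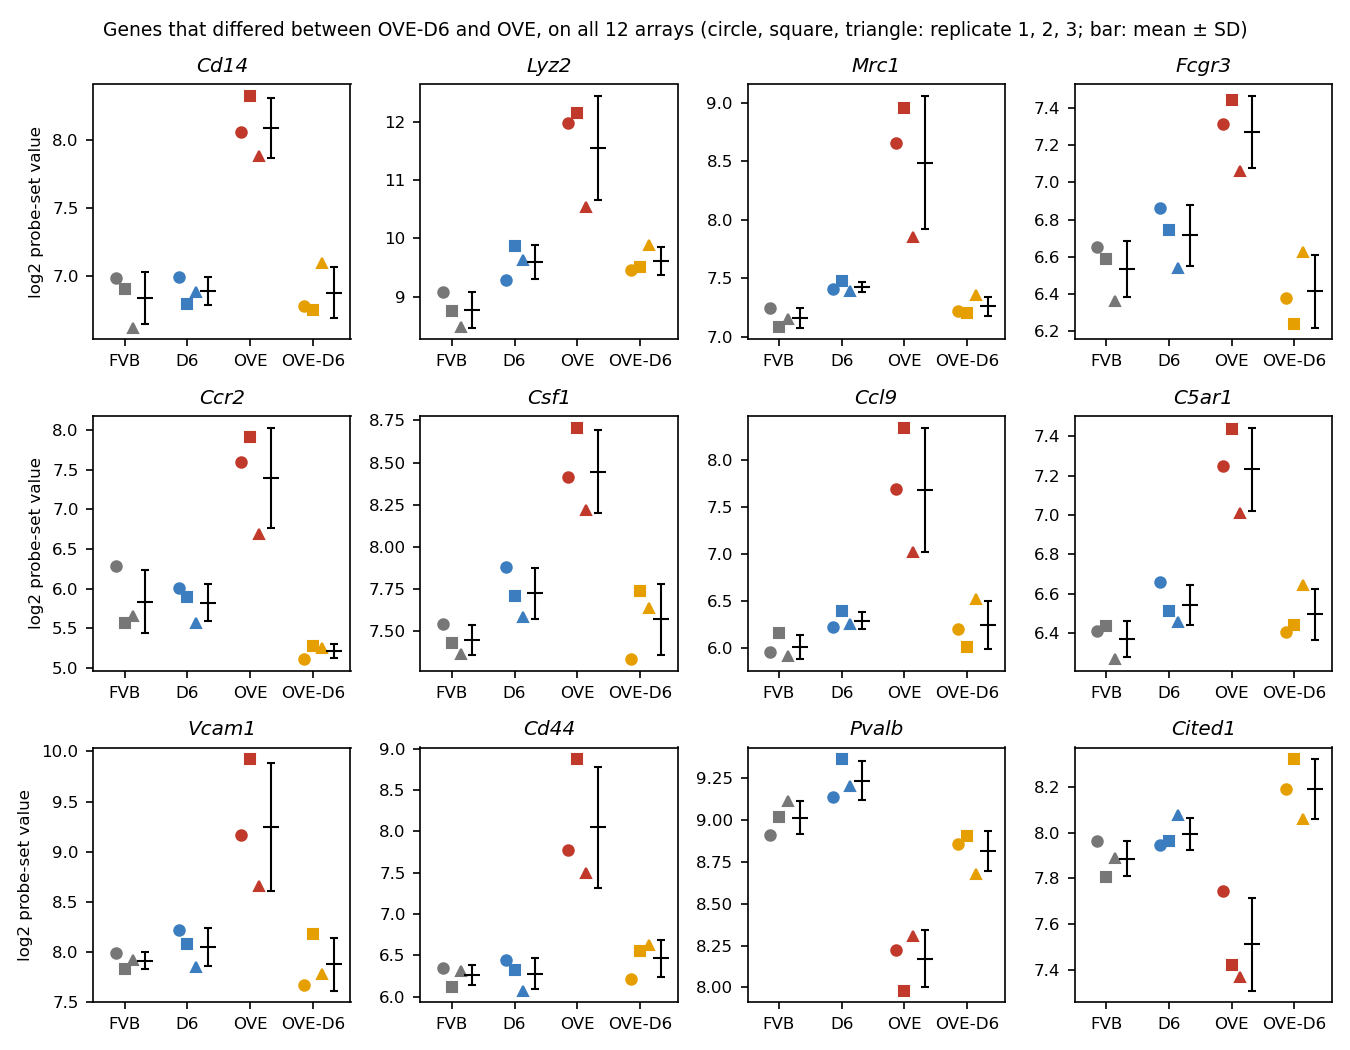
Log2 probe-set values of 12 genes that passed the test, on all 12 arrays by group; circles, squares and triangles are replicates 1, 2 and 3, and the bar beside each group is its mean ± SD. For the first 10 genes the OVE-D6 arrays lie below all OVE arrays and OVE replicate 3 is the lowest OVE array. For Pvalb and Cited1 the OVE-D6 arrays lie above all OVE arrays. OVE replicate 3 is the highest OVE array for Pvalb and the lowest for Cited1.

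Ccr2, the receptor through which Ccl2 recruits monocytes, fell to near background. Its values were 7.59, 7.91 and 6.69 in OVE, 5.11, 5.28 and 5.26 in OVE-D6, 6.29, 5.57 and 5.65 in FVB and 6.01, 5.90 and 5.57 in D6. The OVE-D6 arrays were the lowest of the 12, and the FVB and D6 means were near background too. Against that background level Ccr2 was at least 2.78-fold lower, and the fitted log2 difference was -2.18 ± 0.26 (limma adjusted p = 0.00879). Ccr2 is also a neighbour of Ackr2 in gene order, as described below for chromosome 9. Of 12 tested chemokine receptor genes only Ccr2 passed. Cx3cr1, the fractalkine receptor of monocytes and macrophages, came next with -0.60 ± 0.12 (adjusted p = 0.0683), and the median of the other 9 receptors that do not lie beside Ackr2 was 0.03.

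None of the CC chemokines that D6 scavenges passed the test. Of 8 tested, 8 had lower estimates in OVE-D6 (47.3% of all genes tested did), 6 with an unadjusted p under 0.05 (8.13%). The median was -0.54 (-0.84 with a filter on low values at the 50th percentile). Ccl2, the main attractant of monocytes, read 7.16, 8.82 and 7.39 in OVE and 6.50, 6.67 and 6.18 in OVE-D6, with a difference of -1.34 ± 0.32 (95% interval -2.04 to -0.64, adjusted p = 0.108). The groups did not overlap, and OVE replicate 2 stood well above its group. Ccl17, Ccl7 and Ccl5, attractants of T cells and monocytes, had differences of -0.84 ± 0.23, -0.60 ± 0.18 and -0.82 ± 0.27 (adjusted p = 0.145, 0.169 and 0.200). Ccl11, the eotaxin gene, was at -0.01 ± 0.13. Ccl8 and Ccl12 did not pass the filter on low values.

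Among 8 other CC chemokine genes Ccl9 fell. It read 7.70, 8.34 and 7.02 in OVE and 6.21, 6.02 and 6.53 in OVE-D6, a difference of -1.44 ± 0.25 (2.71-fold lower, adjusted p = 0.0453). Ccl6 and Ccl28 had estimates of -1.18 ± 0.27 and -1.61 ± 0.51 without passing, and the list's median was -0.26. It was -1.18 with a filter at the 50th percentile, which tests fewer genes. Of 14 tested CXC, CX3C and XC chemokines 0 passed with limma. Lower estimates at an unadjusted p under 0.05 were found for 8 (8.13% of all genes tested). Cxcl1, an attractant of neutrophils, came closest at -0.73 ± 0.16 (adjusted p = 0.0893).

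Csf1, the growth factor that keeps macrophages alive, fell. It read 8.41, 8.71 and 8.22 in OVE and 7.33, 7.74 and 7.64 in OVE-D6, a difference of -0.88 ± 0.13 (1.83-fold lower, adjusted p = 0.0393). OVE-D6 replicate 1 was the lowest of the diabetic arrays and lay below the FVB range of 7.36 to 7.54. Csf1 was the member that passed among 11 tested cytokines and growth factors (0.182% of all genes tested fell). Their median was -0.32 (-0.79 with a filter at the 50th percentile and -0.14 without a filter). Tnfsf13b, the B cell survival factor, and Il33, an alarm cytokine, had -0.94 ± 0.22 and -0.70 ± 0.17 without passing. Csf2rb, the shared beta chain of the GM-CSF receptor family, fell with 7.54, 7.50 and 6.88 in OVE against 6.37, 6.42 and 6.46 in OVE-D6 (log2 difference -0.88 ± 0.15, adjusted p = 0.0393).

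C5ar1, the receptor for the complement fragment C5a, fell from 7.25, 7.43 and 7.01 in OVE to 6.40, 6.44 and 6.64 in OVE-D6, a difference of -0.74 ± 0.11 (adjusted p = 0.0393). It was the only call among 13 tested complement genes (0.182% of all genes tested fell), whose median was -0.43 (-0.71 without OVE replicate 3). C3ar1, the receptor for C3a, was at -1.22 ± 0.25 (adjusted p = 0.0774). C7, a part of the membrane attack complex, was at -1.77 ± 0.45 (adjusted p = 0.129). Cd14 was the call among 11 tested Toll-like receptors and co-receptors. All of these had lower estimates (47.3% of all genes tested), with a median of -0.56. Cd180, Tlr1, Tlr13 and Tlr7 had estimates of -0.80, -0.81, -1.08 and -1.19 and did not pass (adjusted p = 0.140 to 0.162).

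Other leukocyte regulators fell too. Cysltr1, a leukotriene receptor, read 6.54, 7.06 and 6.51 in OVE and 5.94, 5.51 and 5.74 in OVE-D6. Its OVE-D6 mean was near background, which makes it at least 1.71-fold lower (fitted difference -0.97 ± 0.16, adjusted p = 0.0393). Irf4, a transcription factor of lymphocytes and macrophages, read 6.74, 6.75 and 6.03 in OVE and 5.73, 5.46 and 5.50 in OVE-D6, all 3 of them near background, and was at least 1.50-fold lower (fitted difference -0.95 ± 0.16, adjusted p = 0.0457). Runx1, a transcription factor of blood cells, read 7.88, 8.38 and 7.61 in OVE and 6.76, 6.91 and 7.01 in OVE-D6 (difference -1.06 ± 0.16, adjusted p = 0.0393). In all 3 of these genes OVE replicate 3 was the lowest OVE array. H2-M2, a non-classical MHC class I gene, read 6.27, 6.28 and 5.56 in OVE and 5.16, 5.06 and 4.87 in OVE-D6, at least 1.08-fold lower with a fitted difference of -1.01 ± 0.18 (adjusted p = 0.0457). Smpdl3b, a membrane phosphodiesterase, and Clca3a2, of the chloride channel regulator family, fell by 0.95 and 1.18 on the log2 scale (adjusted p = 0.0485 and 0.0393).

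The remaining genes that fell are given to account for all 30, although they were outside the rule for named genes by size or by name. They were Elf4, an ETS family transcription factor (-0.73), Rgs16, a regulator of G protein signalling (-0.71), Steap4, a metalloreductase (-0.57), Sbno2 (-0.55), the thrombin receptor thrombomodulin, Thbd (-0.58), the surface proteoglycan syndecan, Sdc1 (-0.45), the palmitoyltransferase Zdhhc14 (-0.42) and the unnamed F630028O10Rik (-0.91). Their adjusted p-values lay between 0.0393 and 0.0485.

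Vcam1 and Cd44 fell among the genes of injured tubules. Vcam1, an adhesion molecule that binds leukocytes, read 9.17, 9.92 and 8.65 in OVE and 7.68, 8.17 and 7.78 in OVE-D6, against 7.83 to 8.22 in non-diabetic kidneys. OVE-D6 replicates 1 and 3 lay below that range and replicate 2 within it, and the difference was -1.37 ± 0.24 (2.59-fold lower, adjusted p = 0.0475). Cd44, the hyaluronan receptor, read 7.77, 8.88 and 7.50 in OVE and 6.21, 6.56 and 6.63 in OVE-D6, 3.00-fold lower (log2 -1.59 ± 0.27, adjusted p = 0.0437). Of 21 tested injury markers these 2 fell (0.182% of all genes tested did), and the median was -0.45. Lower estimates with an unadjusted p under 0.05 were found for 13 (8.13% of all genes tested).

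Lcn2, the neutrophil gelatinase-associated lipocalin of damaged tubules, had the lowest log2 difference of all genes tested without passing. It read 10.23, 11.51 and 9.77 in OVE and 7.08, 7.11 and 9.23 in OVE-D6, a difference of -2.70 ± 0.53 (95% interval -3.85 to -1.55, adjusted p = 0.0710). OVE-D6 replicate 3 lay below the lowest OVE array but far above the other OVE-D6 arrays. The same array was the highest OVE-D6 array for Havcr1, the kidney injury molecule, which read 8.96, 10.29 and 9.90 in OVE and 7.54, 7.79 and 8.85 in OVE-D6 (difference -1.66 ± 0.35, adjusted p = 0.0790). Averaged over the injury markers and set against FVB, OVE-D6 replicates 1, 2 and 3 lay at 0.06, 0.17 and 0.59, and OVE at 0.72, 1.36 and 0.76. This is also the array with the adrenal genes, and the part of that admixture in its injury values was not tested. Of 12 NF-kappaB feedback and adhesion genes only Vcam1 passed. Icam1, the other main endothelial adhesion molecule, was at -0.48 ± 0.11 (adjusted p = 0.0906), and the median was -0.42.

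Fga, the fibrinogen alpha chain, fell among the acute-phase genes. It read 9.03, 9.28 and 8.71 in OVE and 7.62, 7.85 and 8.14 in OVE-D6, a difference of -1.14 ± 0.19 (2.21-fold lower, adjusted p = 0.0437). The estimates of all 11 tested acute-phase and protease inhibitor genes were lower (47.3% of all genes tested), with a median of -0.83. Serpina10 and Serpina3n, both serine protease inhibitors, were at -1.36 ± 0.25 and -1.86 ± 0.41 (adjusted p = 0.0526 and 0.0893), and Fgg, the fibrinogen gamma chain, was at -1.46 ± 0.38 (adjusted p = 0.129).

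Few matrix genes passed. Tgfbi, a matrix protein induced by TGF-beta, read 9.60, 9.76 and 9.42 in OVE and 8.94, 8.99 and 9.09 in OVE-D6 and fell by 0.59 ± 0.10 on the log2 scale (adjusted p = 0.0460). It was the call among 17 TGF-beta genes (0.182% of all genes tested fell), whose median was -0.22. Tgfb1 itself was at -0.41 ± 0.14 (adjusted p = 0.205). Of 18 collagen genes 0 passed and 12 had lower estimates at an unadjusted p under 0.05 (8.13% of all genes tested). Their median was -0.34. Col18a1 and Col15a1, collagens of basement membranes, came nearest at -0.48 ± 0.11 and -0.57 ± 0.15 (adjusted p = 0.0927 and 0.132). Of 22 other matrix genes 0 passed and 13 had lower estimates at an unadjusted p under 0.05, and the thrombospondin gene Thbs2 was at -0.79 ± 0.18 and fibronectin, Fn1, at -0.67 ± 0.24. Mmp12 was the call among 15 matrix proteases and inhibitors. Timp1, the metalloproteinase inhibitor, read 7.03, 8.49 and 7.26 in OVE and 5.98, 5.88 and 6.65 in OVE-D6 (difference -1.43 ± 0.30, adjusted p = 0.0790). Its groups did not overlap.

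Of the 8 genes that rose, Pvalb and Cited1 have known roles in the nephron. Pvalb, the calcium-binding parvalbumin of the distal convoluted tubule, read 8.22, 7.98 and 8.31 in OVE and 8.86, 8.90 and 8.68 in OVE-D6, against 8.91 to 9.36 in non-diabetic kidneys. The OVE-D6 arrays lay above all OVE arrays and just below the non-diabetic range, and the difference was 0.64 ± 0.10 (1.56-fold higher, adjusted p = 0.0393). Cited1, a transcriptional coregulator of nephron progenitors, read 7.75, 7.42 and 7.37 in OVE and 8.19, 8.32 and 8.06 in OVE-D6 (difference 0.68 ± 0.10, adjusted p = 0.0393). Pcsk1n, an inhibitor of prohormone convertase, read 6.68, 6.60 and 6.61 and 7.03, 7.06 and 7.19 (difference 0.46 ± 0.08, adjusted p = 0.0393). Slc6a20a is described with its neighbours on chromosome 9. The protease gene Klk14 and the helicase gene Ddx43 were near background in all groups and get no fold (adjusted p = 0.0393 and 0.0393). The unnamed transcripts B230206H07Rik and D630029K05Rik, given to account for all 8, had differences of 0.68 ± 0.08 and 0.63 ± 0.10 (adjusted p = 0.00879 and 0.0393).

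Tubule segments differed in the sign of their estimates by small amounts. Of 18 thick limb and distal convoluted tubule genes 1 rose and 16 had higher estimates, as did 8693 of all 16480 genes tested. Of the 16, 7 had an unadjusted p under 0.05 (6.66% of all genes tested). The median was 0.14 (0.25 without OVE replicate 3). The sodium-calcium exchanger Slc8a1 was at 0.67 ± 0.18 and the magnesium channel Trpm6 at 0.52 ± 0.15 without passing. All 15 intercalated cell genes had higher estimates and 0 passed, 5 having an unadjusted p under 0.05, with a median of 0.14. The ammonia transporter Rhbg was at 0.53 ± 0.14 and the proton pump subunit Atp6v1b1 at 0.42 ± 0.13 (adjusted p = 0.129 and 0.169). Of 29 proximal tubule transporters and receptors 24 had higher estimates and 0 passed, 8 having an unadjusted p under 0.05, with a median of 0.12 (0.18 without OVE replicate 3), and Slc34a3, a sodium-phosphate transporter, was at 0.52 ± 0.16. The 12 principal cell genes had a median of -0.22 (-0.14 without OVE replicate 2 and -0.11 without OVE-D6 replicate 1), with the water channel Aqp2 at -0.50 ± 0.20. Podocyte genes had a median of 0.15 over 13 genes, and nephrin, Nphs1, read 7.78, 7.37 and 7.87 in OVE and 8.27, 7.99 and 7.86 in OVE-D6, with overlapping groups. The 16 endothelial markers had a median of -0.02 and 0 at an unadjusted p under 0.05.

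Other leukocyte lists had 0 calls each in these samples. Of 13 dendritic cell and MHC class II genes 8 had lower estimates at an unadjusted p under 0.05 (8.13% of all genes tested). Their median was -0.47 (-0.84 without OVE replicate 3). Cd74, the invariant chain, read 12.01, 11.94 and 10.26 in OVE and 10.04, 10.14 and 10.14 in OVE-D6. Its OVE replicate 3 lay just above the OVE-D6 arrays and far below the other OVE arrays, and the difference was -1.30 ± 0.42 (adjusted p = 0.196, and 0.00528 without that array). For the 13 T and NK cell markers the median was -0.18 (-0.51 after a filter at the 50th percentile), 5 of them with lower estimates at an unadjusted p under 0.05, with Cd4 at -0.65 ± 0.18. Of 8 B and plasma cell markers Jchain, the joining chain of secreted antibodies, came nearest. It read 10.20, 9.92 and 7.71 in OVE and 7.51, 7.70 and 7.46 in OVE-D6, so OVE replicate 3 again sat beside the OVE-D6 arrays (adjusted p = 0.154, and 1.76e-04 without OVE replicate 3). All 15 interferon-induced genes had lower estimates, 7 at an unadjusted p under 0.05, with a median of -0.47. Of 12 neutrophil markers listed only 6 were tested, 4 of those near background in all groups, and the receptor Csf3r was at -0.70 ± 0.13 (adjusted p = 0.0578). Without OVE replicate 3, 3.32% of all genes tested fell. In that fit 8 of the 13 dendritic and MHC class II genes and 4 of the 13 T and NK cell markers fell. So did 2 of the 8 B and plasma cell markers, 4 of the 15 interferon-induced genes and 1 of the 6 neutrophil markers. Leaving out any other diabetic array gave 1 to 19 calls over all genes tested. OVE replicate 3 was singled out by the values compared here. Its removal takes away the OVE values nearest to OVE-D6 in genes such as Cd74 and Jchain. The smaller p-values and added calls without it are therefore no separate support.

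**Figure D3:**
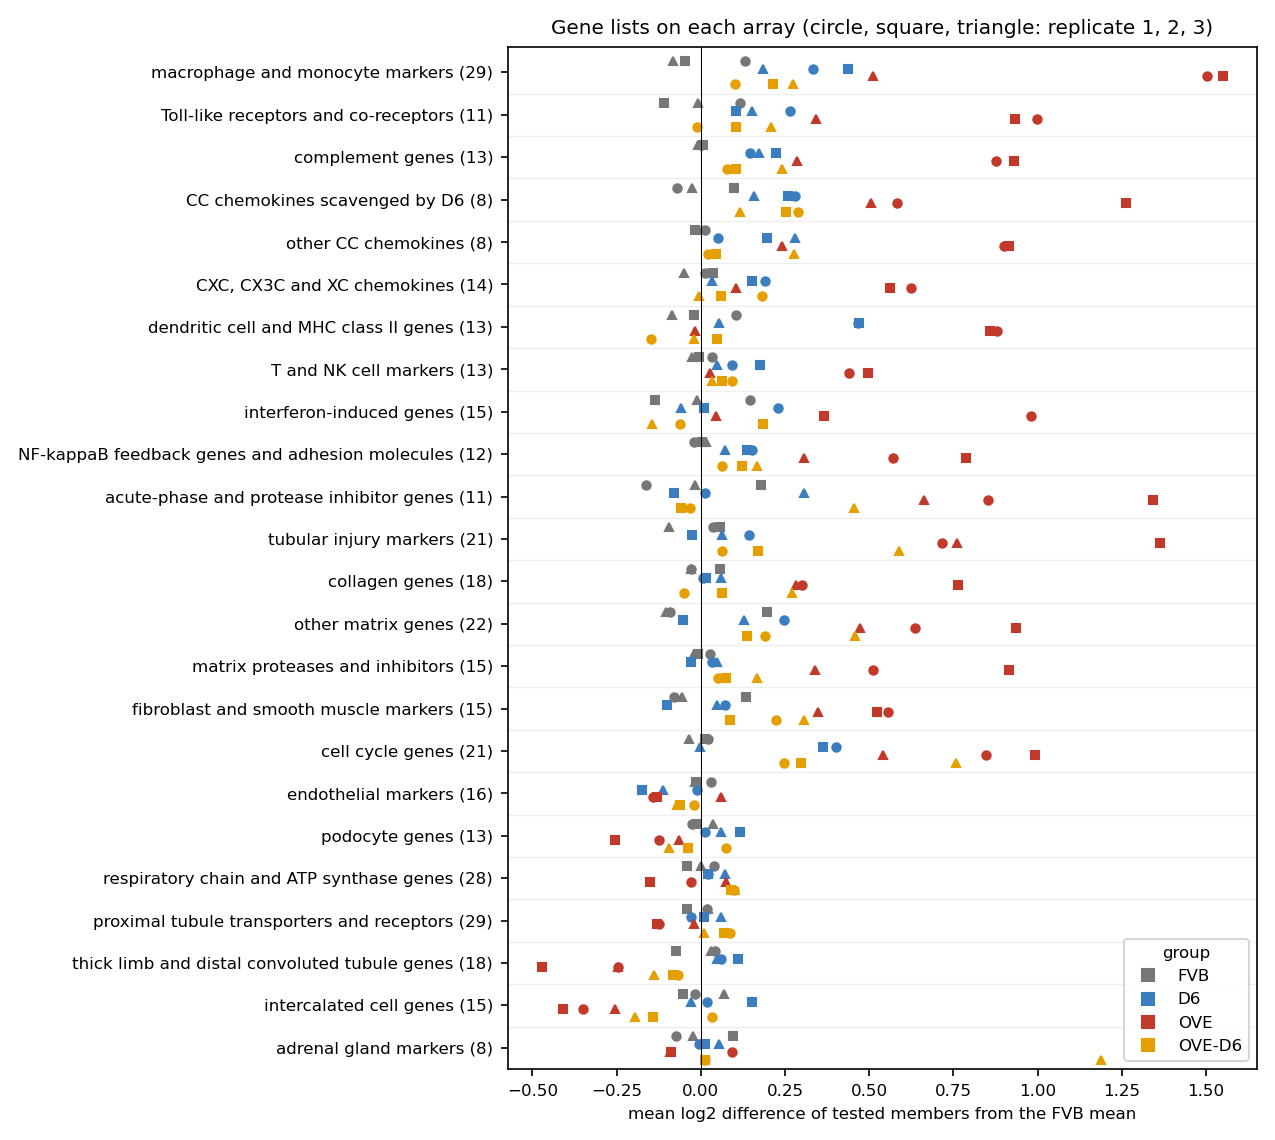
Mean log2 difference of each list's tested members from their FVB mean (horizontal axis), on each of the 12 arrays; colours are groups, circles, squares and triangles are replicates 1, 2 and 3, and the number of tested members stands in brackets. OVE replicate 3 lies between the OVE-D6 arrays and the other OVE arrays for macrophage and monocyte markers, below all OVE-D6 arrays for T and NK cell markers and within their range for dendritic cell and MHC class II genes; OVE-D6 replicate 3 is the highest OVE-D6 array for injury, matrix and cell cycle lists, and it alone stands out for adrenal genes.

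Genes beside Ackr2 on chromosome 9 were looked at separately, since they lie next to the deleted gene. Among 60 tested genes, the 30 on each side of Ackr2 in gene order, 3 fell and 1 rose, and the median was -0.01. Over all genes tested 0.182% fell and 0.0485% rose. Slc6a20b, of the SLC6 transporter family, at place 24, read 11.96, 12.09 and 12.31 in OVE and 11.13, 11.23 and 11.13 in OVE-D6. It read 12.57, 12.43 and 12.59 in FVB and 11.25, 11.23 and 11.26 in D6. All 6 knockout arrays were lower than all 6 arrays with intact D6. The difference was -0.95 ± 0.09 in diabetic kidneys (adjusted p = 0.00196) and -1.29 ± 0.09 in non-diabetic ones (adjusted p = 6.35e-05). Its paralog Slc6a20a at place 25 rose, with 10.47, 10.10 and 9.90 in OVE and 10.88, 10.93 and 10.80 in OVE-D6 (difference 0.72 ± 0.13, adjusted p = 0.0457). Whether the probes of these 2 paralogs share signal was not tested. Lars2, the mitochondrial leucyl-tRNA synthetase at place 21, read 8.14, 8.17 and 8.32 in OVE and 7.49, 7.62 and 7.69 in OVE-D6, and fell in both states, by 0.61 ± 0.09 in diabetic and 0.81 ± 0.09 in non-diabetic kidneys (adjusted p = 0.0356 and 0.00436). Ccr2 at place 30 was near background in both FVB and D6, so its level does not show whether it differs between them. Sacm1l at place 23, a phosphoinositide phosphatase, was at -0.33 ± 0.09 and did not pass, and D6 minus FVB was -0.53 ± 0.09. Cx3cr1 lay 25 places on the other side. Csrnp1, Mobp, Myrip, Cyp8b1, Zkscan7 and Fyco1 had unadjusted p under 0.05 with differences of -0.34, 0.21, 0.31, 0.30, 0.31 and -0.22, and did not pass. In all, 6 of the 934 tested genes of chromosome 9 were among the 38, which made up 0.231% of all genes tested.

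**Figure D4:**
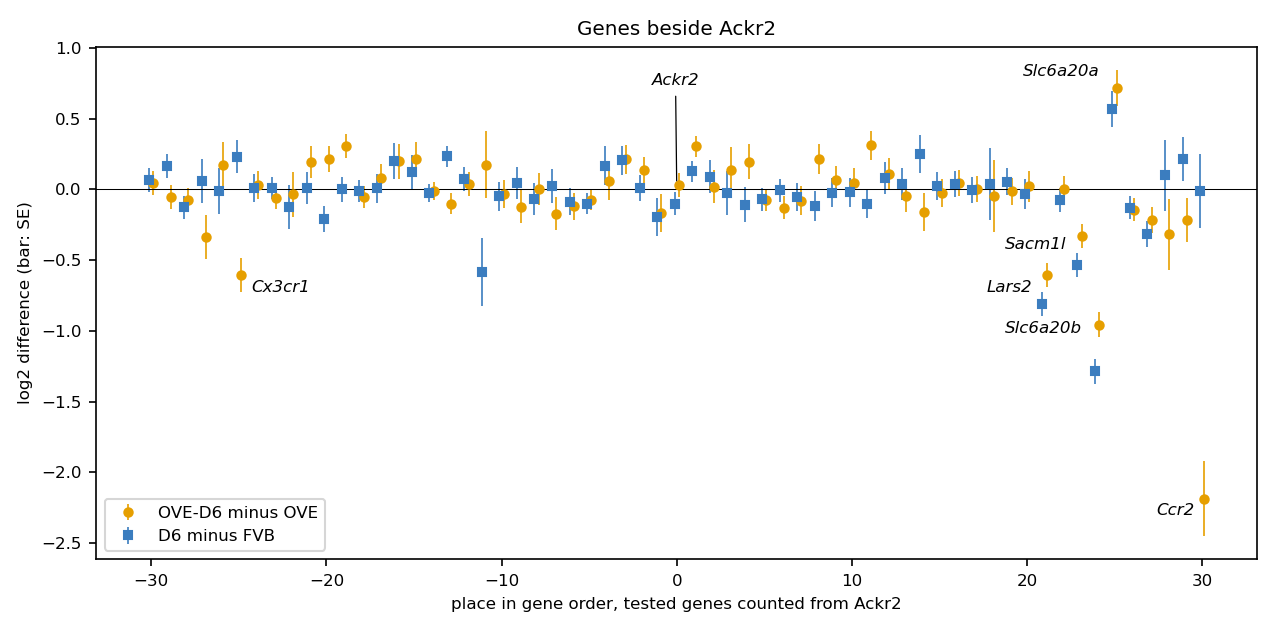
Log2 differences (bar: SE from limma) of Ackr2 and the 60 genes beside it, by place in gene order; circles are OVE-D6 minus OVE and squares D6 minus FVB. Slc6a20b, Lars2 and Sacm1l lie below 0 and Slc6a20a above 0 in both, while Ccr2 and Cx3cr1 lie low for the diabetic kidneys.

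The same deletion was compared in kidneys without diabetes. D6 against FVB, which shares no array with OVE-D6 against OVE, had 2 calls (0.0121%), Slc6a20b and Lars2, both lower, and 630 genes (3.82%) with an unadjusted p under 0.05. Of the 30 genes that fell in OVE-D6, 11 had a lower and 19 a higher estimate in D6 than in FVB, where 51.4% of all genes tested were higher. Of the 8 that rose, 7 had a higher estimate. Cd14 stood at 0.05 ± 0.13 in this comparison, Mrc1 at 0.26 ± 0.20, Csf1 at 0.28 ± 0.13 and Vcam1 at 0.14 ± 0.24. The macrophage list had a median of 0.32 in D6 against FVB, and the D6-scavenged chemokines one of 0.26.

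Whether the knockout effect differed between diabetic and non-diabetic kidneys was tested directly, as OVE-D6 minus OVE less D6 minus FVB. With limma, 0 of 16480 genes passed, the lowest adjusted p was 0.173, and 1647 (9.99%) had an unadjusted p under 0.05. For Cd14 this difference of differences was -1.27 ± 0.19 (adjusted p = 0.173), for Mrc1 -1.49 ± 0.28 and for Lyz2 -2.76 ± 0.48. Without OVE replicate 3, 377 genes (2.29%) passed, 353 of them negative.

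**Figure D5:**
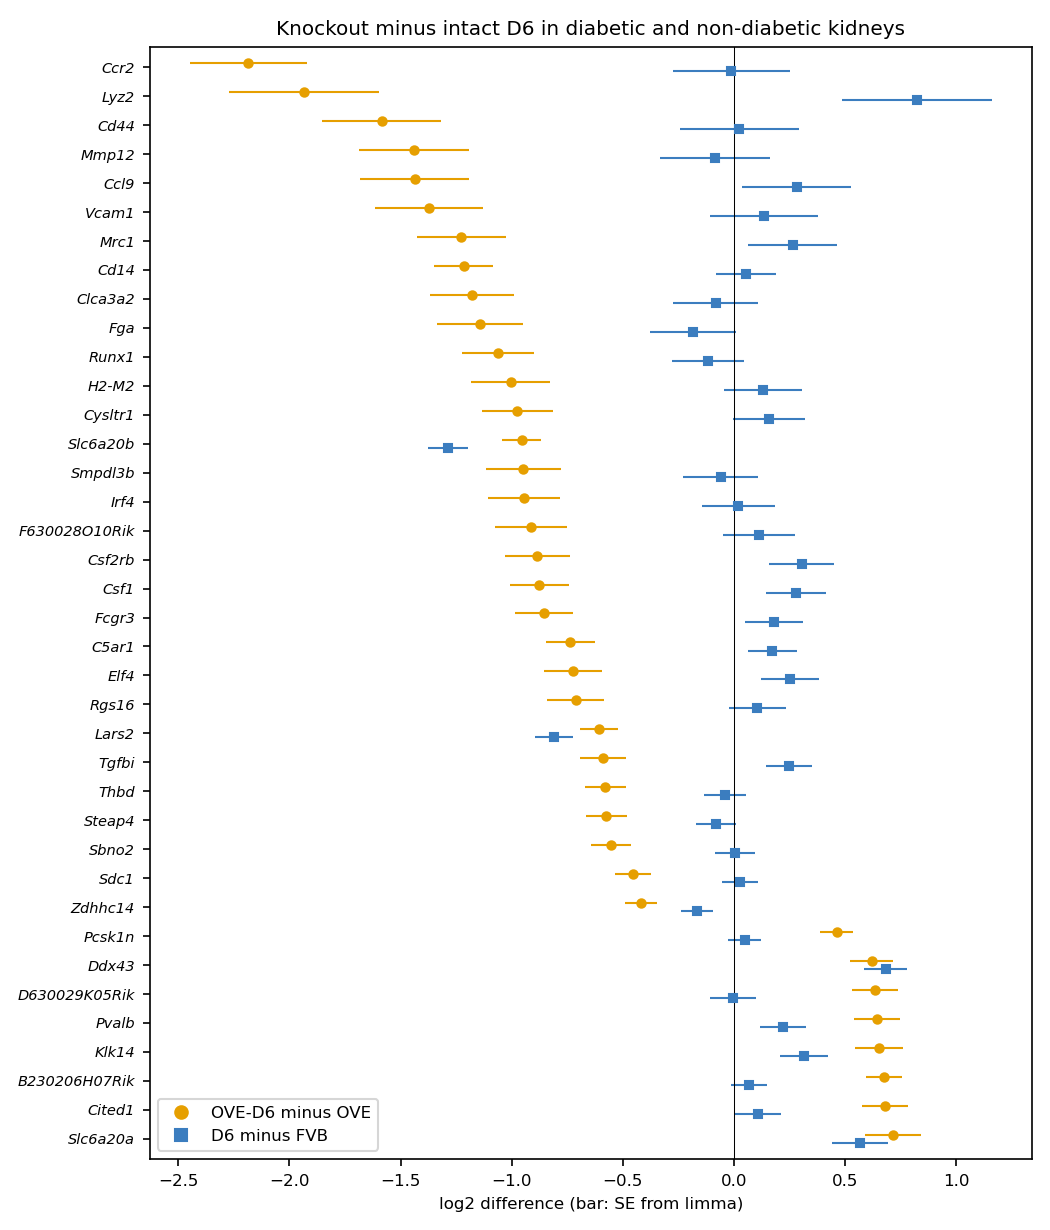
Log2 differences (bar: SE from limma) for the 38 genes that passed in OVE-D6 against OVE, shown as circles for OVE-D6 minus OVE and squares for D6 minus FVB. Slc6a20b and Lars2 are low in both, and Slc6a20a and Ddx43 high in both, though Ddx43 was near background in all groups. The immune genes have squares near or above 0.

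The levels in OVE-D6 were also set beside those in FVB, with the caution that OVE against FVB and OVE-D6 against OVE share the OVE arrays. Cd14 was 1.26 ± 0.13 in OVE minus FVB and 0.04 ± 0.13 in OVE-D6 minus FVB. Mrc1 had 1.33 ± 0.20 and 0.10 ± 0.20, and Vcam1 1.34 ± 0.24 and -0.04 ± 0.24. Pvalb, in the other direction, had -0.84 ± 0.10 and -0.20 ± 0.10. For these genes the diabetic knockouts lay nearer to the healthy level than the diabetic mice with intact D6 did, which restates the differences above and is no further test.

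OVE replicate 3 was the OVE array closest to the OVE-D6 mean for 25 of the 30 genes (41.9% of all genes tested) and for 2 of the 8 that rose. Measured from the OVE-D6 mean towards the mean of OVE replicates 1 and 2, it stood at a median of 57.9% of the way, with a range of 37.4% to 133% over the 30 genes. OVE replicate 2 was the highest OVE array for 24 of the 30.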

How the data were processed

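Kidney RNA of 12 mice, 1 array each, was hybridised to Affymetrix gene arrays after whole-transcript labelling, per the labels' protocols. The input was 100 ng, and integrity numbers exceeded 8.8 with a mean of 9.1. The authors deposited 1 log2 value per probe set and array. How probe sets were summarised and arrays normalised is not given in the sources used here. Array medians lay between 6.84 and 6.93, correlations between arrays between 0.976 and 0.994, and no further scaling was applied.

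The table held 35556 probe sets. A single gene symbol was given for 21789, more than 1 for 1621, and none was found here for 12146. Symbols of the platform annotation were updated through the mouse gene table of GRCm38.p6, by Entrez identifier for 21698 probe sets and by accession for 3, and 88 were kept as given. For the 1001 genes with several such probe sets, the one with the highest mean over all arrays was used. Genes above the array's 25th percentile on at least 3 arrays were tested with limma 3.58.1 in R 4.3.3 (group means over all 12 arrays, contrasts, eBayes, Benjamini-Hochberg adjustment over the 16480 genes, threshold 0.05). The procedure was tried on simulated arrays with the same spread in every group and no array standing apart, unlike these data. It recovered 94.2% of 2-fold and 72.6% of smaller planted changes, and 6.65% of its calls were false. The simulation does not cover the effect of OVE replicate 3. Standard errors are those of limma and rest on a spread shared by all groups, not on the compared groups alone. A fold against a group mean below the background level was computed against that level.

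Genes named are Ackr2, up to 20 that fell and 12 that rose most with an established symbol, all called members and up to 4 further members of each gene list with the smallest p, and the genes beside Ackr2 with an unadjusted p under 0.05. The 54 lists, the genes compared, the motifs and these rules were chosen with earlier results of these data known. Lists were described by counts and medians, without a test. Promoter windows of RefSeq were searched over 250 bases before the start, and the 50 bases after it were left out. Of the 30 genes that fell, 24 had a window. Replicate numbers were not used to pair samples. Other settings tried were other filters, quantile normalisation, averaged probe sets, other variance models, fewer arrays and another threshold. Plots used matplotlib 3.10.9 and pandas 2.3.3 in Python 3.11.15.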

Additional observations from a re-analysis of the deposited data

How the results depend on the processing

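All 38 genes kept their direction in every alternative in which they were tested. Their number, 38 with 8 higher and 30 lower, was 29 without a filter, 42 with a filter at the 50th percentile, 31 after quantile normalisation, 33 with the mean of a gene's probe sets and 35 with a trended and robust variance. It was 91 (82 lower) with array weights, 151 (32 higher, 119 lower) at a threshold of 0.10 and 0 (0 higher, 0 lower) on the 6 diabetic arrays alone. Leaving out single arrays gave 1 to 668 genes, 0 to 121 higher and 1 to 547 lower. Deviations of same-numbered OVE and OVE-D6 arrays correlated at 0.052, -0.068 and -0.087, and a replicate block gave 7 genes (2 higher, 5 lower). Over all pairs of groups such correlations ran from -0.248 to 0.123. They do not settle whether same-numbered arrays were handled together. In D6 against FVB the 2 calls became 4 with array weights (1 higher) and 1 on the 6 non-diabetic arrays alone (1 lower). There 1 gene was called higher under the replicate block and at 0.10, and 0 to 1 when an array was left out. For the difference of the knockout effects, leaving out an array gave 0 to 377 calls, 0 to 24 higher and 0 to 353 lower.

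Medians of lists moved by more than the spread between arrays in few settings. With a filter at the 50th percentile they were -0.51 for T and NK cell markers, -0.53 for B and plasma cell markers, -0.84 for the D6-scavenged chemokines, -1.18 for other CC chemokines, -0.23 for chemokine receptors, -0.79 for cytokines, 0.0723 for skeletal muscle markers and -0.0406 for genes beside Ackr2. Without a filter they were -0.10 for neutrophil markers, -0.14 for cytokines and -0.42 for NADPH oxidase subunits. Quantile normalisation gave -0.0008 for neutrophil markers, and leaving out the genes beside Ackr2 gave 0.0279 for chemokine receptors. Leaving out single arrays gave 0.0068 to 0.0478 for neutrophil markers, -0.84 to -0.35 for dendritic cell and MHC class II genes, -0.47 to -0.20 for cytokines, -0.71 to -0.27 for complement genes, -0.33 to -0.13 for fibroblast markers, -0.18 to -0.0825 for p53 targets, 0.10 to 0.18 for proximal tubule, 0.071 to 0.25 for thick limb and distal tubule, -0.26 to -0.11 for principal cell, 0.0712 to 0.23 for polyol, -1.06 to -0.58 for NADPH oxidase, -0.19 to -0.0278 for unfolded protein response, 0.0271 to 0.0922 for vitamin D, 0.11 to 0.43 for red blood cell, 0.0746 to 0.16 for muscle, 0.0224 to 0.13 for liver and pancreas genes, and -0.0345 to 0.0153 for genes beside Ackr2. The cause of these shifts was not tested. Another pseudocount could not be tried on log2 values. The number of arrays and signal near background limit what small differences can show.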

Other observations

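Several kidney processes outside the immune and nephron lists had members with sizeable estimates in OVE-D6 against OVE. Serpina6, which encodes corticosteroid-binding globulin, had the highest estimate of all genes tested. It read 10.45, 7.65 and 7.91 in OVE and 10.72, 11.84 and 11.37 in OVE-D6, against 6.41 to 8.31 in non-diabetic kidneys, with a difference of 2.64 ± 0.59 (95% interval 1.37 to 3.91, adjusted p = 0.0893). OVE replicate 1 stood close to the lowest OVE-D6 array and far above the other OVE arrays. Targets of the glucocorticoid receptor had lower estimates, with Tsc22d3 at -0.64 ± 0.13 (adjusted p = 0.0790) and Fkbp5 at -0.79 ± 0.23 (adjusted p = 0.162), and the median of 11 corticosteroid genes was -0.25. Cyp27b1, which activates vitamin D, read 8.84, 9.39 and 8.55 in OVE and 8.32, 7.44 and 8.21 in OVE-D6, against 6.27 to 6.39 in FVB and 7.07 to 7.51 in D6 (difference -0.94 ± 0.23, adjusted p = 0.119). The groups did not overlap, and all diabetic arrays but OVE-D6 replicate 2 lay above all non-diabetic ones. The 14 vitamin D, calcium and phosphate genes had a median of 0.03, with Klotho, Kl, at 0.32 ± 0.09.

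The subunits of the phagocyte NADPH oxidase had a median of -0.76 over 7 genes. Of these, 4 had lower estimates at an unadjusted p under 0.05 (8.13% of all genes tested). Ncf4 was at -0.88 ± 0.20 and Ncf1 at -0.80 ± 0.20 (adjusted p = 0.0893 and 0.129). The lysosomal protease genes Ctsc and Ctss were at -1.07 ± 0.23 and -1.24 ± 0.30, while the median of 14 lysosomal genes was -0.04. Cell cycle genes had a median of -0.36 over 21, with the replication helicase subunit Mcm6 at -0.74 ± 0.20 (adjusted p = 0.146). On the array means of this list, OVE-D6 replicate 3 at 0.76 stood above OVE replicate 3 at 0.54. Fibroblast and smooth muscle markers had a median of -0.30 over 15, with Pdgfra at -0.43 ± 0.14. The p53 targets had -0.15 over 12, and the immediate early genes -0.11 over 14, where Myc was at -0.93 ± 0.19 (adjusted p = 0.0774).

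All 28 tested genes of the respiratory chain and ATP synthase had higher estimates, as did 8693 of all 16480 genes tested. Their median was 0.12, with 0 calls and 4 at an unadjusted p under 0.05 (6.66% of all genes tested, higher). Cox4i1, a subunit of cytochrome c oxidase, was at 0.26 ± 0.10 (adjusted p = 0.244). Fatty acid oxidation genes had a median of 0.08 over 27 and cholesterol and fatty acid synthesis genes 0.04 over 21. The medians were -0.03 for 17 genes of glycolysis and gluconeogenesis, 0.21 for 7 of polyol, fructose and inositol handling, 0.10 for 23 amino acid transporters, of which Slc6a20a rose and Slc6a20b fell, 0.02 for 18 NRF2 targets and antioxidant enzymes and -0.15 for 14 genes of the unfolded protein response. They were 0.15 for 15 cytochrome P450 genes, 0.02 for 15 circadian clock genes, 0.16 for 6 renin-angiotensin genes and -0.11 for 6 juxtaglomerular and mesangial genes. Akr1b8, an aldo-keto reductase, and Cyp2d9 were lower in their estimates, at -0.71 ± 0.18 and -1.01 ± 0.21, without passing.

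Markers of tissues outside the kidney gave medians of 0.01 for 12 fat genes, 0.29 for 8 adrenal genes, 0.36 for 4 red blood cell genes, 0.13 for 11 skeletal muscle genes and 0.08 for 7 liver and pancreas genes. Fat genes differed between arrays within groups, as Adipoq showed with 6.48, 5.91 and 6.10 in OVE and 6.80, 4.69 and 6.73 in OVE-D6. Kidney genes that differ between the sexes had medians of -0.01 for 10 male-biased and 0.19 for 3 female-biased genes. Among them, Cyp4a12a, a fatty acid hydroxylase, was at 0.96 ± 0.29 and Slc22a29, an organic anion transporter, at 0.85 ± 0.20 (adjusted p = 0.168 and 0.109).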
